A study of Homo sapiens with 6 samples.

Results

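The 6 RNA-seq libraries of the study divided into 3 with more and 3 with less HSPA1A RNA, and this division crossed the siRNA groups. It was made on the row of HSPA1A, the stress-inducible 70-kDa heat shock protein. The 3 libraries at 5 FPKM or more were siEHMT2 replicate 3 (9.80 FPKM) and siNC replicates 1 and 2 (8.66 and 8.05). The 3 below 5 FPKM were siEHMT2 replicates 1 and 2 (1.97 and 2.04) and siNC replicate 3 (1.78). They are called HSPA1A-high and HSPA1A-low here. FPKM is a count of sequenced fragments divided by the length of the transcript and by the size of the library. Of 55765 gene rows, 12858 other than HSPA1A had a mean of at least 1 FPKM and were compared, and 2035 of them followed the split and not the siRNA group.

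A row was taken to follow the split when 2 conditions held. All 3 libraries of one side lay above all 3 of the other. In an additive fit to log2(FPKM + 1) with the split and the siRNA group, the split difference was at least 2 times the siRNA difference in size. Of the compared rows, 969 (7.54%) followed it with higher values in the HSPA1A-high libraries and 1066 (8.29%) with lower values. Since measured values chose the libraries and the rows, all split differences are given as descriptions without a test. Rows just inside the limit of 2 were ZFYVE19 and RP11-395I14.2, and just outside were VWA9 and PRTFDC1. ZFYVE19, for example, held 7.24, 6.48 and 6.09 FPKM in the HSPA1A-high and 5.83, 5.47 and 5.27 in the HSPA1A-low libraries. A further 855 rows without overlap across the split had too large an siRNA difference to be included.

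SK-NEP-1, which the submitters call a Wilms tumor line of kidney origin, had been given siRNA, short RNA that triggers decay of a matching transcript. The siRNA was directed at EHMT2 (siEHMT2) or was the control named siNC, with 3 libraries of each kind. The labels give no siRNA sequence, dose or time point, and all 6 libraries were prepared from total RNA by the same kit. The protein made from EHMT2 methylates lysine 9 of histone H3. The labels do not say that replicates came from separate cultures, so the spread between them may be technical. EHMT2 stood at 7.61, 8.26 and 16.2 FPKM in siEHMT2 replicates 1 to 3 and at 27.5, 27.2 and 22.7 in siNC replicates 1 to 3. The HSPA1A-high siEHMT2 library thus had the most EHMT2 of its group and the HSPA1A-low siNC library the least of its own. EHMT1, which encodes its partner in the methyltransferase complex, was at 8.04 to 9.83 FPKM in all 6 and had a split difference of 0.03 ± 0.04 on the log2(FPKM + 1) scale.

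The labelled tumor type was checked against marker genes. Of 8 Wilms tumor and nephron progenitor genes, the defining SIX2 and PAX2 were near 0, at 0.0923 to 0.234 and 0.0414 to 0.119 FPKM, and WT1 lay at 0.895 to 1.56. SALL1 (1.93 to 3.63 FPKM), EYA1 (0.988 to 2.02) and CITED1 (0.673 to 2.12) were present at low levels, and the 8 summed to 11.3 to 12.3 FPKM. Genes typical of Ewing sarcoma were abundant, with NKX2-2 at 103 to 134 FPKM, PAX7 at 60.7 to 98.0 and CD99 at 43.4 to 70.9. The defining markers SIX2 and PAX2 thus did not bear out the labelled tumor type, and the cells are called SK-NEP-1 here. Summed FPKM of blood cell markers was 0.474 to 1.28, of endothelial markers 0.542 to 0.756 and of fibroblast markers 1.03 to 1.57, and HBB was at 0 in all 6 libraries. Epithelial markers summed to 3.92 to 4.48 FPKM in HSPA1A-high and 4.82 to 8.12 in HSPA1A-low libraries, nearly all from KRT18.

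Cells answer misfolded protein through the transcription factor HSF1, which binds heat shock elements, inverted repeats of GAA and TTC, and switches on genes for HSP70 proteins and their J-domain partners. Low oxygen stabilises HIF, which binds hypoxia response elements with an ACGTG core and raises genes of glycolysis and of mitochondrial removal. DDIT4 (REDD1) inhibits the growth kinase complex mTORC1 and is known to respond to hypoxia, glucocorticoids and amino acid shortage. In bulk RNA, more cells of a responding kind and more RNA per cell cannot be told apart.

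Upstream sequences are printed for a few members picked by hand, each marked for the element assigned to it. Rows such as RAX, ELAVL3 and CPT1B had larger split differences than CHORDC1, AK4 and BNIP3 but are not printed. The windows therefore do not show how common the elements are among rows with large differences. Each line gives the 250 bases before an annotated start, 5′ to 3′ on the gene's strand, from RefSeq on build GRCh38.p14. For genes with several windows (3 for DNAJB1, 4 for AK4), the window with the most matches is shown. In the first 4, capitals mark heat shock elements, searched as GAANNTTC or TTCNNGAA, and overlapping matches merge.
HSPA1B (chr6:31827488-31827737, plus strand): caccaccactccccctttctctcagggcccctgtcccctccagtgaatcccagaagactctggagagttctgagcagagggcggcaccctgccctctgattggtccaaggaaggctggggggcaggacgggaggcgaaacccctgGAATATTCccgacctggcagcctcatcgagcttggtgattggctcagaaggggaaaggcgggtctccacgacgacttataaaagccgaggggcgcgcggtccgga
DNAJB1 (chr19:14518398-14518647, minus strand): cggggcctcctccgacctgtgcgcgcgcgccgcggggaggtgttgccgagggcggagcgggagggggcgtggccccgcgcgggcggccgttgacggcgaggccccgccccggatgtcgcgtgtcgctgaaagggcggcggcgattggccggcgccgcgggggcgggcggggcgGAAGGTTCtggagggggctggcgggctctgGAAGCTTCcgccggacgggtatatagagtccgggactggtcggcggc
HSPA8 (chr11:123062137-123062386, minus strand): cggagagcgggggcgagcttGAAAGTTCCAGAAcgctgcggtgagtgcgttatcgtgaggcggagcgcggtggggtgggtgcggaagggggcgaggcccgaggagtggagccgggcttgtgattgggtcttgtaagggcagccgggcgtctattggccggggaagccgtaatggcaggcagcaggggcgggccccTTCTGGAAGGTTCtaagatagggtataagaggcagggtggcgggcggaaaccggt
CHORDC1 (chr11:90223050-90223299, minus strand): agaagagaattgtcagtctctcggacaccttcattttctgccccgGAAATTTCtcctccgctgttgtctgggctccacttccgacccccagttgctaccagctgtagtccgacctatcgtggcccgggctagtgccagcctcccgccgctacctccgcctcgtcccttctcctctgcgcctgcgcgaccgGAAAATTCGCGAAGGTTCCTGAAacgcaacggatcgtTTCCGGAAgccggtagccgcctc
In the next 4, capitals mark the hypoxia response element core, searched as ACGTG or its complement CACGT. A palindromic CACGTG matches both.
DDIT4 (chr10:72273674-72273923, plus strand): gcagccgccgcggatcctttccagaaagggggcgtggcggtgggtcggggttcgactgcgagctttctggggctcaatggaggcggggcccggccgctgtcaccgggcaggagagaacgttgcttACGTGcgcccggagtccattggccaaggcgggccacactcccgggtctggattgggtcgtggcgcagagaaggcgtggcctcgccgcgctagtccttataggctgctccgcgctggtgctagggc
ALDOC (chr17:28576896-28577145, minus strand): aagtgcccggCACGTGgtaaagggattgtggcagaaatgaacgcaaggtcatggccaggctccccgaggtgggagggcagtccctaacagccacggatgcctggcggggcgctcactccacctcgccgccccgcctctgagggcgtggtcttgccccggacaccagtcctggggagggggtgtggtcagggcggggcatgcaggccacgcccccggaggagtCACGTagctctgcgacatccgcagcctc
BNIP3 (chr10:131981924-131982173, minus strand): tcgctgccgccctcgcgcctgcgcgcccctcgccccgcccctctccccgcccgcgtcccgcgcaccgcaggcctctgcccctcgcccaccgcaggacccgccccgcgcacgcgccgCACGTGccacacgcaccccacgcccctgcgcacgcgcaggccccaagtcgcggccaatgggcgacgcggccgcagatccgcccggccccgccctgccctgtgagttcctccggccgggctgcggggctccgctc
AK4 (chr1:65147302-65147551, plus strand): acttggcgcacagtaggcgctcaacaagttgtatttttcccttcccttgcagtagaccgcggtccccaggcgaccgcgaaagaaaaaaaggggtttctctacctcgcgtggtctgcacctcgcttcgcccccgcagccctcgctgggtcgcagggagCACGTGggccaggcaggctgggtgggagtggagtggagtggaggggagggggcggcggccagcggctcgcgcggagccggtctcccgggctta
The DDIT4 window also holds TTCNNGAA once, which starts at base -232. Of the 12858 compared rows, 8889 had a RefSeq promoter window (250 bases before to 50 after the start). A heat shock element was in at least one window of 13.2% of these genes and a hypoxia core in 33.1%. The rows that followed the split as a whole carried them about as often: 14.7% and 31.6% of higher rows, and 13.0% and 33.4% of lower rows. Of the members of the chaperone list described next, all 7 that followed the split, HSPA1B included, had a heat shock element. The hypoxia core was in 4 of 6 following members of the HIF list and in 5 of 5 of the glycolysis list. These lists hold known targets of the factors, and a match is not evidence of binding.

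HSP70 genes and their J-domain partners had some of the largest split differences. In what follows, HSPA1A-high values are given in the order siEHMT2 replicate 3, siNC replicates 1 and 2, and HSPA1A-low values in the order siEHMT2 replicates 1 and 2, siNC replicate 3. HSPA1B, a near-identical copy of HSPA1A, held 12.1, 10.8 and 9.98 FPKM against 2.68, 2.64 and 2.49, a mean ratio of 4.21. Reads of the 2 copies cannot be told apart with confidence, so HSPA1B is not separate evidence beside HSPA1A. DNAJB1, the HSP40 protein that delivers clients to HSP70, held 24.3, 23.0 and 21.6 FPKM against 9.94, 9.07 and 8.48. HSPA8, the constitutive HSC70, held 355, 408 and 413 FPKM against 166, 135 and 213. For all 3 genes the sides were separated by a gap wider than the spread within either side. On the log2(FPKM + 1) scale, the split differences were 1.77 ± 0.05 for HSPA1B, 1.28 ± 0.05 for DNAJB1 and 1.09 ± 0.14 for HSPA8 (SE of the additive fit, 6 libraries).

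**Figure D1:**
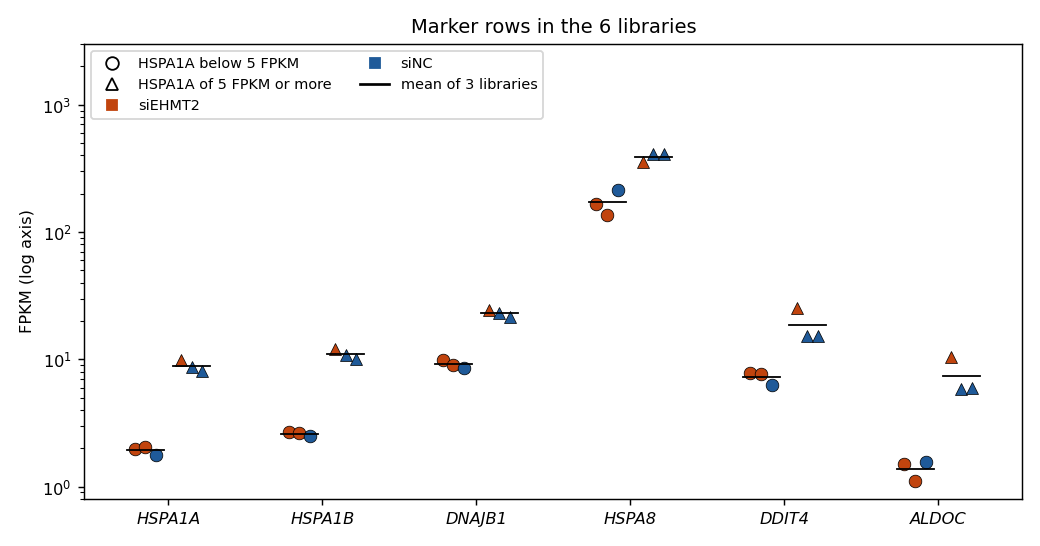
FPKM (log axis) of HSPA1A, which defined the split, and 5 further marker rows in each library. Circles are HSPA1A-low and triangles HSPA1A-high libraries, orange is siEHMT2 and blue siNC, and a bar is the mean of 3 libraries. In all 6 rows the triangles lie above the circles; for DDIT4 and ALDOC the highest is siEHMT2 replicate 3, at 25.2 and 10.4 FPKM.

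A row that follows the split must differ the same way inside each siRNA group, so the sizes alone are described. Among the siNC libraries alone, replicates 1 and 2 exceeded replicate 3 by 1.70 for HSPA1B, 1.30 for DNAJB1 and 0.94 for HSPA8 on the log2 scale. Within siEHMT2, replicate 3 exceeded replicates 1 and 2 by 1.84, 1.27 and 1.24. In siNC alone, 109 compared rows were at least 2-fold apart between replicates 1 and 2 and replicate 3, while 28 were that far apart between replicates 1 and 2. In siEHMT2 the corresponding numbers were 133 for replicate 3 against 1 and 2, and 67 for replicate 1 against 2.

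The list of 26 compared HSF1 targets and cytosolic chaperones had 7 members (26.9%) that followed the split, all higher. Of all compared rows, 7.54% followed it with higher values. The median split difference of the list was 0.19, with 17 members above 0 and 9 below. Over all compared rows the median was -0.0076. Among the 7 were DNAJB1, HSPA8 and HSPA1B, which are markers chosen with results of these data known. They count in these values, so the share is not independent support. HSPA1B, moreover, is not separate evidence beside HSPA1A. The 4 others were CHORDC1, an HSP90 co-chaperone (7.93, 9.88 and 10.4 against 5.30, 6.0 and 5.51 FPKM), DNAJB4, DNAJA1, a J-domain partner of HSC70 (87.9, 90.9 and 89.4 against 73.5, 62.2 and 72.1), and STIP1, which links HSP70 to HSP90. Their split differences were 0.60 ± 0.12, 0.55 ± 0.11, 0.35 ± 0.09 and 0.29 ± 0.07. Other well-known HSF1 targets did not follow it. HSP90AA1, the inducible HSP90, held 269, 284 and 285 FPKM against 271, 234 and 254, and the small heat shock protein HSPB1 held 147, 148 and 124 against 168, 153 and 150. HSPH1, an HSP110, held 113, 154 and 152 FPKM against 101, 88.8 and 111, but its siRNA difference was too large for the rule. Summed FPKM of the list was 2840 to 3013 in HSPA1A-high and 2246 to 2648 in HSPA1A-low libraries.

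As lists, other branches of protein quality control did not share this pattern of higher values. The 8 subunits of the chaperonin TRiC, which folds actin and tubulin, all had a split difference below 0 (median -0.19), and CCT7 and CCT6A followed the split with lower values. CCT7 held 141, 133 and 123 FPKM against 161, 148 and 167. None of the 22 endoplasmic reticulum chaperone and unfolded protein response genes followed it. Their median was -0.03, with 9 above 0 and 13 below. HSPA5 (BiP), their standard marker, held 99.3, 107 and 103 FPKM against 97.4, 85.6 and 97.2, a split difference of 0.12 ± 0.07. Its HSPA1A-high values thus lay above the others, but its siRNA difference was too large for the rule. The libraries are therefore called by HSPA1A and not by stress.

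DDIT4 and genes of glycolysis and the HIF response were higher with HSPA1A. DDIT4 held 25.2, 15.2 and 15.2 FPKM against 7.80, 7.64 and 6.33, a split difference of 1.37 ± 0.13. ALDOC, the brain-type aldolase, had the largest split difference of the higher rows, 1.87 ± 0.27, with 10.4, 5.85 and 5.93 FPKM against 1.49, 1.10 and 1.57. In both, siEHMT2 replicate 3 was highest by a clear margin and the HSPA1A-low libraries lay close together. ALDOC differed by 1.43 within siNC and by 2.31 within siEHMT2.

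Of 19 compared HIF targets 6 (31.6%) followed the split, all higher (median 0.25; 16 of 19 above 0). Over all compared rows 7.54% were higher, and the median was -0.0076. AK4, a mitochondrial adenylate kinase, held 4.68, 5.10 and 5.34 FPKM against 2.15, 2.63 and 2.07 (0.88 ± 0.11). BNIP3, a receptor for mitochondrial autophagy, held 42.7, 35.5 and 33.0 FPKM against 23.5, 20.2 and 18.9 (0.88 ± 0.09). PFKFB4, which makes an activator of phosphofructokinase, differed by 0.61 ± 0.12, and PDK1, which keeps pyruvate out of the mitochondrion, by 0.45 ± 0.08. The smallest differences were those of the transcription repressor MXI1 and the histone demethylase KDM3A (0.23 ± 0.08 and 0.22 ± 0.09). KDM3A differed by 0.36 without siEHMT2 replicate 3 and by 0.08 without siNC replicate 3. VEGFA, the vascular growth factor, held 7.22, 5.83 and 5.24 FPKM against 4.68, 5.30 and 4.75, so its sides overlapped. HIF1A itself had a split difference of -0.06.

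A pair of further hypoxia-linked rows was chosen after the values were seen. CA9, the HIF-induced carbonic anhydrase, was below the filter, at 0.397, 0.298 and 0.259 FPKM in the HSPA1A-high libraries and listed at 0 in all 3 others. MIR210HG, the host transcript of the hypoxia-induced miR-210, held 4.52, 2.37 and 2.41 FPKM against 1.03, 0.621 and 0.720 (1.29 ± 0.21). Its neighbour PHRF1 had a split difference of 0.0047.

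Among 17 glycolysis enzymes 5 (29.4%) followed the split, all higher, and 16 had a difference above 0 (median 0.17). Of all compared rows, 7.54% followed it with higher values. ALDOC, a marker chosen with results of these data known, counts among the 5. After ALDOC came PFKP, the platelet-type phosphofructokinase (53, 43.7 and 43.3 against 30.6, 34.8 and 36.6 FPKM; 0.46 ± 0.14), and LDHA, which turns pyruvate into lactate (159, 168 and 168 against 115, 106 and 137; 0.40 ± 0.08). ALDOA and PGK1 differed by 0.30 ± 0.09 and 0.23 ± 0.09. Without siEHMT2 replicate 3, PFKP differed by 0.24, ALDOA by 0.20 and PGK1 by 0.07. Then 3 of the 17 followed the split with higher values (median 0.09), and 8 of 19 HIF targets (median 0.24), against 10.9% of all compared rows.

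**Figure D2:**
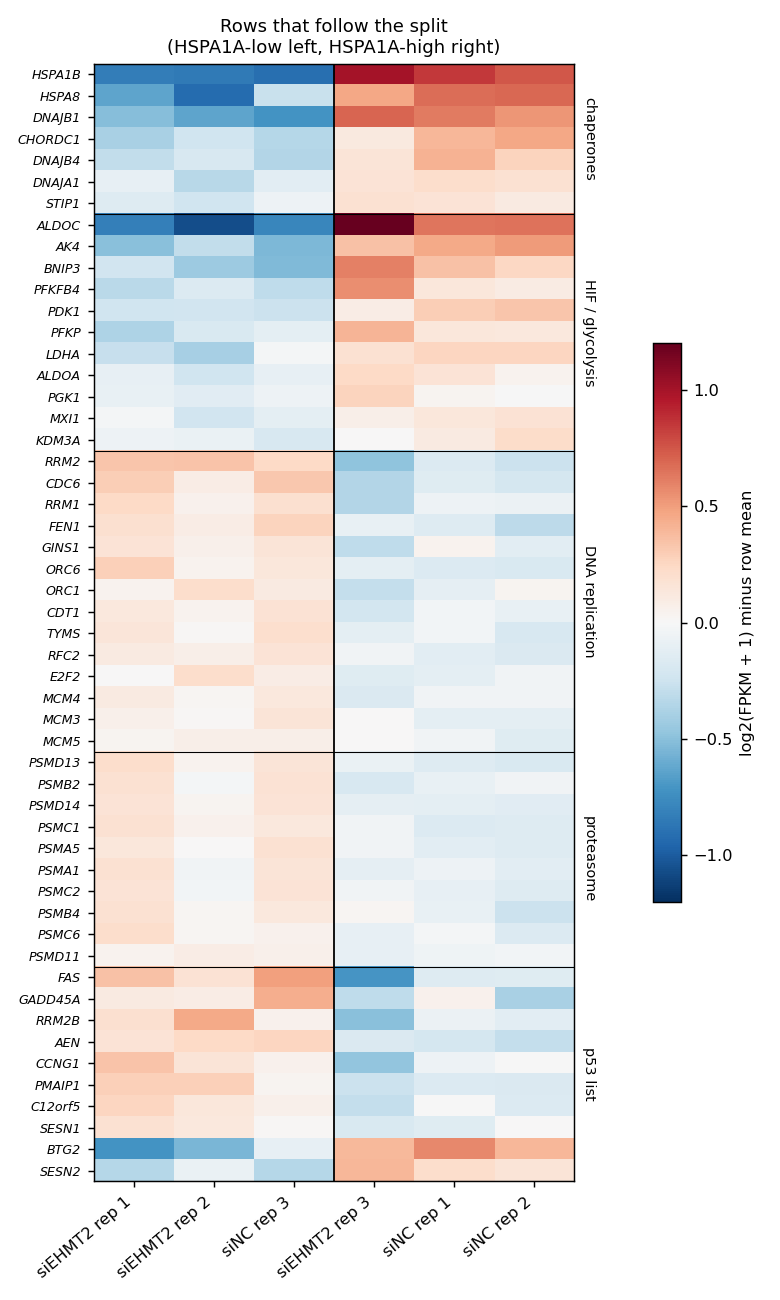
Each row is a gene of the chaperone, HIF and glycolysis, DNA replication, proteasome or p53 list that followed the split, and each column a library, with HSPA1A-low on the left. Color is log2(FPKM + 1) minus the row mean over the 6 libraries. The chaperone and the HIF and glycolysis rows are blue on the left and red on the right, and the replication and proteasome rows the reverse; siEHMT2 replicate 3 is the most extreme library in many rows.

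Targets of ATF4 were mixed. In the list of 28, which serves the integrated stress response, 2 were higher (the marker DDIT4 and SESN2) and 2 lower (MTHFD2 and WARS). The median was 0.02. Each share was 7.14%, near the 7.54% higher and 8.29% lower of all compared rows. SESN2, a leucine sensor that restrains mTORC1, held 7.64, 6.63 and 6.29 FPKM against 4.2, 5.23 and 4.17. MTHFD2, a mitochondrial folate enzyme, held 24.3, 29.5 and 29 FPKM against 38.4, 33.7 and 38.7. DDIT3 (CHOP) was high in siEHMT2 replicate 3 alone, at 14.1 FPKM against 6.67 to 7.98 in the 5 other libraries. ASNS, the asparagine synthetase, was at 15.2 to 17.5 FPKM in all 6.

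Of 23 p53 targets, 8 (34.8%) followed the split with lower values and 2 (8.70%) with higher values, with a median of -0.21. Over all compared rows the shares were 8.29% and 7.54%. FAS, a death receptor, held 4.83, 7.59 and 7.63 FPKM against 11.2, 9.75 and 12.5 (-0.81 ± 0.11), and GADD45A, AEN, CCNG1, PMAIP1, RRM2B, SESN1 and C12orf5 (TIGAR) were lower as well. The higher ones were SESN2 and BTG2, an antiproliferative gene also induced early by many stimuli (19.4, 22.3 and 19.6 against 8.48, 9.64 and 13.6 FPKM). CDKN1A (p21) was low throughout, at 0.544 to 1.48 FPKM, and did not follow the split. Without siEHMT2 replicate 3, 4 of the 23 followed it with lower and 1 with higher values, and the median was -0.14. Of all compared rows, 11.9% were then lower and 10.9% higher. CCNG1 and RRM2B then had differences of -0.09 and -0.14, against -0.40 and -0.48 with all libraries.

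Among 18 immediate early genes, FOS, an AP-1 subunit, was the only one that followed the split with higher values, with 3.72, 5.21 and 4.50 FPKM against 1.33, 1.55 and 2.01 (0.95 ± 0.08). CTGF, a target of YAP and of TGF-beta, was lower, with 2.47, 2.22 and 2.67 FPKM against 4.64, 4.34 and 4.42 (-0.66 ± 0.07), and JUND, another AP-1 subunit, was lower by 0.44 ± 0.11. EGR1 stayed under 0.4 FPKM in every library. In the glucocorticoid and FOXO list, DDIT4 and CCNG2 were higher and SGK1 and SESN1 lower, of 13 compared (15.4% each way). The immediate early list had 5.56% higher and 11.1% lower. Over all compared rows the shares were 7.54% and 8.29%.

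Genes of metal handling and one cold-shock gene were lower where HSPA1A was high. MT1X, a metallothionein that binds zinc and copper, held 2.91, 2.55 and 3.32 FPKM against 7.53, 5.02 and 7.28 (-0.98 ± 0.21). SLC30A1, the zinc exporter of the plasma membrane, held 3.34, 4.28 and 4.12 FPKM against 7.83, 7.0 and 6.41 (-0.73 ± 0.14). Both belong to 5 compared members of the metal list, of which 4 were lower and 2 followed the split. MT2A was also lower in the HSPA1A-high libraries (11.8, 9.45 and 9.76 against 23.2, 19.4 and 12.5 FPKM), but its siRNA difference kept it out. RBM3, an RNA-binding protein induced by mild cold and chosen here after its values were seen, held 30.2, 29.5 and 27.8 FPKM against 43.6, 42.3 and 55.1. CIRBP, the other well-known cold-shock gene, held 28.3, 20.5 and 19.1 FPKM against 21.0, 22.5 and 23.7 and did not follow the split. Of 16 NRF2 targets only TXNRD1, a thioredoxin reductase, followed it (lower, -0.33 ± 0.05), a share of 6.25%.

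DNA replication genes were lower almost throughout. Of 34 G1/S genes 14 (41.2%) followed the split, all lower, where 8.29% of all compared rows were lower. A difference below 0 was found in 33, with a median of -0.21 against -0.0076 over all compared rows. RRM2, the small subunit of ribonucleotide reductase, held 51.4, 64.6 and 60.2 FPKM against 91.6, 91.9 and 85.6 (-0.64 ± 0.11). CDC6, which loads the replicative helicase, held 26.8, 31.1 and 29.5 FPKM against 42.5, 36.7 and 43.3 (-0.52 ± 0.08). RRM1, the flap endonuclease FEN1, GINS1, ORC1, ORC6, CDT1, TYMS, RFC2, E2F2, MCM3, MCM4 and MCM5 were lower by 0.10 to 0.38. The values of FEN1, GINS1, ORC1, RFC2, MCM3 and MCM5 moved by over 1.5 times without siEHMT2 replicate 3 or without siNC replicate 3, as for MCM3, at -0.27 and -0.03. The exception in sign was POLE (0.19). PCNA, the replication clamp, held 164, 219 and 206 FPKM against 271, 225 and 331, with separate sides but too large an siRNA difference. Without siEHMT2 replicate 3, 16 of the 34 followed the split with the same median, where 11.9% of all rows were lower.

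Of 37 genes of mitosis, 3 (8.11%) followed the split with higher and 0 with lower values. Over all compared rows the shares were 7.54% and 8.29%. The 3 were the kinetochore checkpoint kinase BUB1B (39.5, 38.5 and 38.5 against 30.4, 30.8 and 30.3 FPKM), the spindle protein PRC1 and the proliferation marker MKI67. The median was 0.07. Without siEHMT2 replicate 3, 8 followed it, all higher, where 10.9% of all rows were higher. After a correction of each library for GC content, 7 followed the split with higher and 0 with lower values. Of all rows with a GC value, 9.35% were then higher and 10.8% lower. With all libraries and no GC correction, 4 of 10 compared replication-dependent histone genes followed the split with higher values: HIST2H2BE, HIST1H2AC, HIST1H1C and HIST2H4A (0.26 to 0.51). HIST1H1C differed by 0.11 without siEHMT2 replicate 3 and by 0.72 without siNC replicate 3. HIST1H2AC, for example, held 7.67, 6.08 and 6.49 FPKM against 4.98, 4.92 and 4.53. These transcripts usually lack a poly(A) tail, and how RNA was selected is not stated in the labels.

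Proteasome genes were lower in part. Of 31 proteasome subunits 10 (32.3%) followed the split, all lower, and 27 had a difference below 0 (median -0.16). Over all compared rows 8.29% were lower, and the median was -0.0076. PSMD14, the deubiquitinase of the lid, held 13.6, 13.4 and 13.3 FPKM against 16.5, 15.0 and 16.6 (-0.25 ± 0.05). Of 25 nucleolar ribosome biogenesis genes 23 had a difference below 0 (median -0.21). Among them NIP7, DKC1 and RRS1 followed the split, and the pseudouridine synthase DKC1 held 54.1, 50.3 and 47.8 FPKM against 69.7, 65.2 and 67.3. Only RPS27A and RPL14 of 78 cytosolic ribosomal protein genes did so (median -0.06). Without siEHMT2 replicate 3, 25 ribosomal protein, 9 nucleolar and 15 proteasome genes followed the split, all lower, with medians of -0.30, -0.30 and -0.26, where 11.9% of all compared rows were lower.

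**Figure D3:**
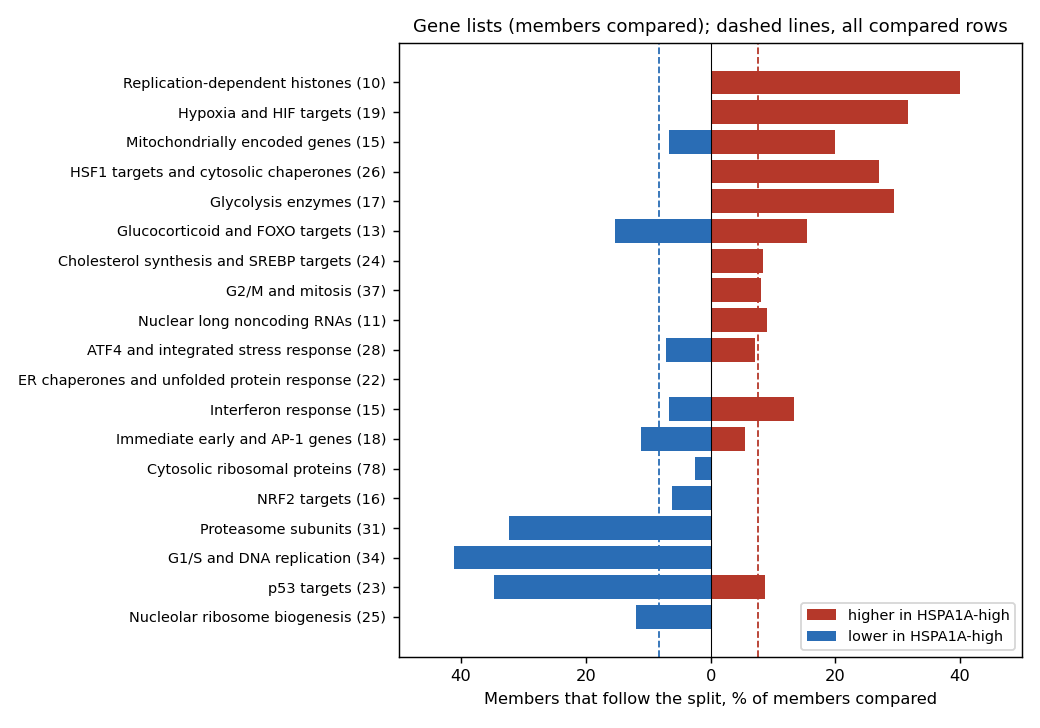
Share of the compared members of each list that followed the split, with higher values (red, to the right) or lower values (blue, to the left) in HSPA1A-high libraries, for lists with at least 10 compared members (number in brackets), ordered by median split difference. Dashed lines are the shares over all compared rows, 7.54% and 8.29%. Chaperone, HIF, glycolysis and histone lists are among those past the line on the right, and G1/S, p53 and proteasome lists among those past it on the left.

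Of 15 mitochondrially encoded transcripts 13 had a difference above 0 (median 0.23; 0.05 without siEHMT2 replicate 3), and 3 followed the split with higher and 1 with lower values. MT-ND5 and MT-ND4, subunits of respiratory complex I, and the ribosomal RNA MT-RNR2 were higher, by 0.43 ± 0.09, 0.23 ± 0.10 and 0.43 ± 0.14 (MT-RNR2 by 0.28 without siEHMT2 replicate 3). MT-ND1, of the same complex, was lower by 0.34 ± 0.06, at 1669, 1917 and 1964 FPKM against 2225, 2278 and 2302. INSIG1, which retains the SREBP complex in the endoplasmic reticulum, was higher by 0.39 ± 0.08, and the list of 24 cholesterol genes had a median of 0.08. Of 15 interferon genes STAT2 and OAS3 were higher (13.3%) and IFI6 lower (6.67%). Of 11 nuclear long noncoding RNAs, MEG3 was higher (0.67 ± 0.16, and 0.44 without siEHMT2 replicate 3). Of the tumor markers, NR0B1 was higher (11.2, 11.7 and 9.86 against 7.09, 8.68 and 9.21 FPKM) and CD99 and WT1 were lower.

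Several of the largest differences lay outside the lists. RAX, a homeobox factor of eye and forebrain, held 15.6, 12.8 and 11.9 FPKM against 5.49, 5.42 and 2.72 (1.60 ± 0.14). ELAVL3, a neuronal RNA-binding protein, held 8.56, 8.50 and 8.83 FPKM against 3.25, 3.41 and 3.80 (1.08 ± 0.05). CPT1B, the muscle-type importer of fatty acids into mitochondria, held 7.08, 6.03 and 6.17 FPKM against 2.81, 2.64 and 2.55 (1.06 ± 0.04). Each of these had its 3 HSPA1A-high libraries at least 2-fold above the HSPA1A-low mean. DCDC2, PRRT2, FLRT1 and TSPEAR differed by 1.05 to 1.06 (DCDC2 by 0.63 without siNC replicate 3). TSPEAR overlaps its antisense transcript TSPEAR-AS1, which differed by 1.07. The strand setting is not given, so whether their reads were told apart is unknown.

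On the lower side, STOM, the membrane protein stomatin, held 0.602, 0.599 and 0.328 FPKM against 2.16, 2.42 and 2.43 (-1.14 ± 0.12). ANXA1, a calcium-dependent phospholipid-binding protein, held 1.77, 1.28 and 0.984 FPKM against 4.36, 3.81 and 2.91 (-0.88 ± 0.09). TFAP2C, an AP-2 transcription factor, held 0.662, 0.993 and 0.913 FPKM against 2.26, 2.15 and 2.31 (-0.85 ± 0.06). The keratin gene KRT17, the carboxypeptidase gene CPB2, IGLON5, TMEM158 and ZNF837 were lower by 0.84 to 0.96, with CPB2 at -0.40 within siNC alone and -1.52 within siEHMT2 alone. The value furthest below 0, that of the platelet receptor subunit GP1BB (-2.25 ± 0.70), rested on scattered libraries, at 0.590, 1.4 and 1.34 FPKM against 1.92, 9.34 and 14.5. GP1BB shares a readthrough transcript with SEPT5, whose row differed by 0.13. TEN1 (-0.96 ± 0.29) shares a readthrough transcript with CDK3, whose row TEN1-CDK3 differed by 0.12.

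Most followers differed little. The median split difference was 0.36 for the 969 higher and -0.30 for the 1066 lower rows. Those that followed it by at least 0.5 numbered 266 (2.07%) and 139 (1.08%), and by at least 1, 29 and 8. Without regard to the siRNA difference, the sides did not overlap for 1358 rows (10.6%) in the higher and 1532 (11.9%) in the lower direction. A row without overlap across the split must overlap between the siRNA groups, by the way the libraries are arranged.

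**Figure D4:**
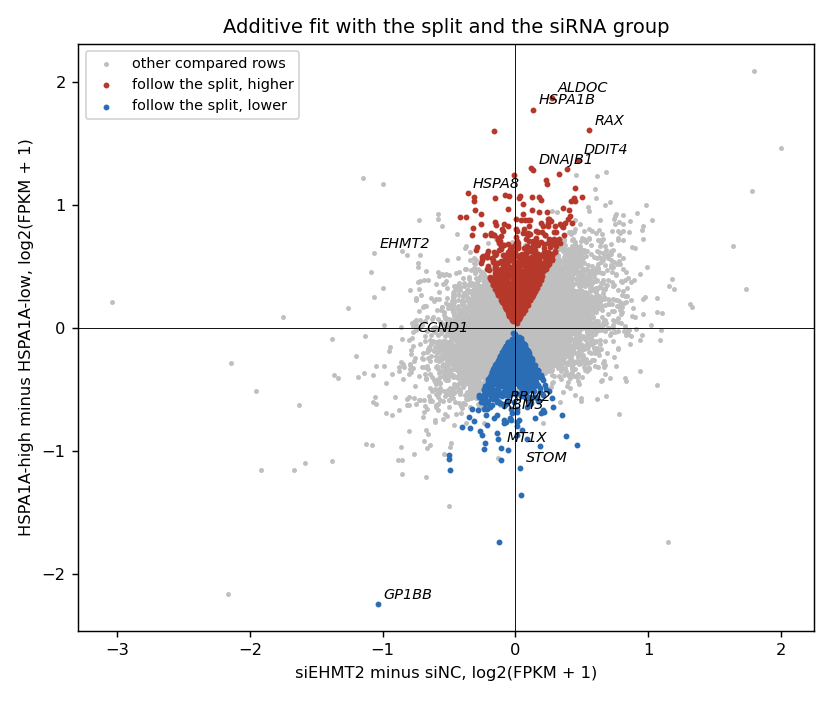
Split difference (HSPA1A-high minus HSPA1A-low) against siRNA difference (siEHMT2 minus siNC) of the 12858 compared rows in the additive fit, both on the log2(FPKM + 1) scale. Red and blue points are the 969 and 1066 rows that followed the split, and their wedge shape is set by the rule; among these, ALDOC and HSPA1B lie highest and GP1BB lowest.

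GC content of the transcripts moved with the split, mainly through 1 library. In siEHMT2 replicate 3 the deviation of a row from its mean correlated with GC content across genes (Spearman rho 0.573), against -0.339 to 0.111 in the other libraries. Median GC content was 53.3% in the higher followers, 46.7% in the lower ones and 50.2% in all compared rows that had a value. The split difference itself had a rho of 0.286 with GC over 11726 genes, which are not independent. Without siEHMT2 replicate 3, 1398 rows (10.9%) were higher and 1529 (11.9%) lower, and 721 of the 969 higher and 759 of the 1066 lower rows still followed the split. After a correction of each library for GC content, 1353 of the 1897 followers with a GC value did so, among 1096 higher and 1272 lower rows.

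**Figure D5:**
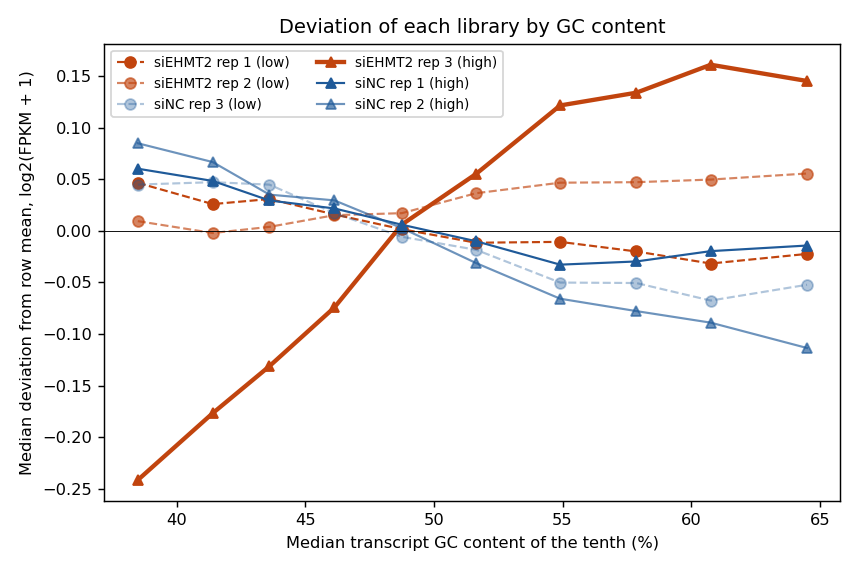
Median deviation from the row mean, log2(FPKM + 1), in 10 equal groups of the compared genes ordered by transcript GC content (%), for each library. Solid lines with triangles are HSPA1A-high, dashed lines with circles HSPA1A-low. The line of siEHMT2 replicate 3 climbs from -0.24 in the group of lowest GC content to 0.15 in that of the highest, while the others stay within -0.11 and 0.09.

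The chaperone and replication counts were also computed without that library. Of the 26 chaperones, which include the markers HSPA1B, DNAJB1 and HSPA8, 7 were then higher and none lower. Of all compared rows, 10.9% were then higher. After the GC correction 9 were higher, against 9.35% of all rows with a GC value. Of the G1/S genes, 11 were lower after the GC correction, against 10.8%. All libraries were close in scale, with FPKM sums of 244702 to 272271 and a mitochondrial share of 19.03% to 23.59%, which was highest in siEHMT2 replicate 3. Across the compared genes, the log2 values of siEHMT2 replicate 1 correlated more closely with siNC replicate 3 (r = 0.981) than with siEHMT2 replicate 3 (r = 0.967). The correlation between siNC replicates 1 and 2 was 0.992, and between siNC replicates 1 and 3 it was 0.980. Other pairs went against the split. siEHMT2 replicate 3 was closest to siEHMT2 replicate 2 (0.975), with 0.974 and 0.968 for siNC replicates 1 and 2. siEHMT2 replicate 2 was nearer to siNC replicates 1 and 2 (0.976 and 0.972) than to siNC replicate 3 (0.970). The correlations between libraries thus did not follow the split throughout.

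Against this background, the siRNA groups were compared by their labels with limma. At an adjusted p under 0.05, 71 of 12859 rows (0.552%) differed, 44 higher (0.342%) and 27 lower (0.21%) in siEHMT2. By construction few followers could be among them, and none was. Of the listed genes, limma called only KIF23 and CCND1 lower and NOLC1 higher. None of the chaperone, HIF, glycolysis, p53, G1/S or proteasome members was called. HSPA8 had a limma log2 fold change of -0.72 ± 0.37 (adjusted p = 0.330) and DNAJB1 of -0.29 ± 0.42 (adjusted p = 0.747). When the split was added to limma as a second term, 1140 rows (8.87%) passed, 650 higher (5.05%) and 490 lower (3.81%), and all 71 were among them. EHMT2 then passed as well, at -1.06 (limma adjusted p = 0.0135) against -1.27 (limma adjusted p = 0.0609) without the term. The term was chosen from the same libraries and leaves few degrees of freedom, so this larger count is not independent evidence of siRNA effects.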

How the data were processed

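Groups and replicate numbers came from the sample titles, which all name SK-NEP-1 although the field for the line counts upward from sample to sample. The authors deposited FPKM per gene, a unit named per the file headers. HISAT2 2.2.1, StringTie 2.2.0, SAMtools 1.4.1, fastp and the build hg19 appear in the submitters' processing notes; the annotation and strand setting are not given in the sources used here. Depth is unknown, since reads could not be recovered from FPKM, and neither a count model nor a counting interval was used.

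All work was on log2(FPKM + 1) for rows that averaged 1 FPKM or more; the added 1 shrinks the differences of low genes. The HSPA1A split at 5 FPKM came from the data; its differences and standard errors come from a least-squares fit with the split and the siRNA group and carry no test. A row followed the split when the sides did not overlap and the split difference was at least 2 times the siRNA difference. The siRNA groups were tested with limma 3.58.1 in R 4.3.3, two-sided with a mean-variance trend and Benjamini-Hochberg adjustment at 0.05; an exact permutation of 3 against 3 libraries cannot give a p below 0.1. Both steps were tested on simulated data.

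The members and the 27 gene lists (568 entries, 567 found, 2 of them through a synonym) were chosen with earlier results of these data known. Named genes were the 6 markers, EHMT2 and EHMT1, the 12 largest and 12 smallest split differences among protein-coding followers with at least 2 FPKM on the higher side, and up to 4 following members per list or, where none followed, the 2 most abundant; any other gene was picked with its values in view. Gene type and GC content (GENCODE 29, matched by symbol) and promoters (RefSeq) are on another build than the files. Alternatives were other pseudocounts, filters, scalings, ratios, a GC correction (lowess, span 0.5), a replicate block and each library left out. Figures were drawn with Python 3.11.15 and matplotlib 3.10.9.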

Additional observations from a re-analysis of the deposited data

How the results depend on the processing

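For the 83 named rows that follow the split, 120 of 913 alternative values moved by more than the spread between replicates. Their sign was fixed by the choice of rows without overlap, and a replicate block leaves the split difference unchanged in this layout of libraries, so neither is a sign of stability. The counts of followers scale with the filter: 1619 higher and 1758 lower rows without it, and 511 and 706 at a mean of at least 5 FPKM. With 1 library left out they ran from 918 to 1593 higher (1593 without siEHMT2 replicate 2) and from 1035 to 1529 lower; under the remaining alternatives they stayed within 1.5 times. The siRNA calls are unstable. Limma called 71 rows, but 0 without the filter (3641 at an unadjusted p under 0.05), 134 at a mean of at least 5 FPKM, 31 with libraries rescaled to the same sum (10 higher, 21 lower), 30 without the variance trend, 1140 with the split as a second term, and 0 to 172 with 1 library left out (5, 0 and 172 without siEHMT2 replicates 1, 2 and 3; 0, 1 and 4 without siNC replicates 1, 2 and 3). The cause was not tested. With the replicate block limma called 0 rows (1845 at an unadjusted p under 0.05). Libraries with the same number share only that number: their deviations from the group means correlated at -0.350, 0.087 and -0.393. Depth is unknown, and 3 libraries per side limit the precision of every value.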
